A study of Saccharomyces cerevisiae with 6 samples.

Results

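The genes described here are those of the glyoxylate cycle and of gluconeogenesis in Saccharomyces cerevisiae, with 3 genes that feed or serve these routes. They were found by name in tables of 5703 features, and all 10 of 10 had a row: MLS1, ICL1, MDH2, CIT2, FBP1, PCK1, PYC1, JEN1, SFC1 and IDP2. Transcripts were measured by RNA sequencing in 3 cultures of strain IMF17, in which a neochromosome is the sole source of glycolytic expression, and in 3 cultures of strain IMX2109, which expresses glycolysis from its native genome. Both strains grew aerobically on selective minimal medium with glucose to an optical density of 8 at 660 nm, in 100 mL of medium in 500 mL flasks, and no other treatment, age or allele is given in the labels. Each strain is 1 constructed line grown in triplicate from a frozen stock, so that the place of glycolysis cannot be told apart from any other difference between these lines.

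The glyoxylate cycle bypasses the decarboxylating steps of the tricarboxylic acid cycle and lets yeast build sugars and amino acids from ethanol or acetate. Isocitrate lyase and malate synthase are its own enzymes, and citrate synthase and malate dehydrogenase complete it. Gluconeogenesis then leads from oxaloacetate through phosphoenolpyruvate carboxykinase and fructose bisphosphatase back to hexose. On glucose most of these genes are repressed. On non-fermentable carbon the kinase Snf1 and the activators Cat8 and Sip4 switch many of them on through a promoter element called CSRE (carbon source-responsive element), whereas CIT2 is known as the standard target of the retrograde pathway, in which Rtg1 and Rtg3 bind an R box.

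Upstream sequences that carry these elements are shown first, because the genes that hold the CSRE consensus include 3 that rose and 1 that did not pass the test. They were read from the S288C reference (RefSeq R64), not from the IMF17 assembly on which reads were counted. The coding length of all 10 genes was the same in both. The search covered 800 bases before each coding start on both strands, without trimming neighbouring genes, and 5997 nuclear genes gave a full window. Matches to the 12-base CSRE consensus lay in 40 windows (0.667%), among them those of MLS1, ICL1, MDH2 and PCK1. JEN1, SFC1 and IDP2, which rose too, held no match to this consensus. A missing match does not show that a window lacks the element. The calls of the other genes with a match were not examined. That consensus was worked out in part on promoters of this pathway, so its presence here is no independent finding. Capitals mark the matches, each line runs 5′ to 3′ toward the gene, and MLS1 held 2, MDH2 3 and the others 1.
MLS1, R64 chrXIV:405798-405897, plus strand: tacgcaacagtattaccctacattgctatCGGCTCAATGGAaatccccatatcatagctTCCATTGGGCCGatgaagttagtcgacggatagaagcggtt
ICL1, R64 chrV:287275-287354, minus strand: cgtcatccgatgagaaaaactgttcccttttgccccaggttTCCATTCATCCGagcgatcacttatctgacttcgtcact
MDH2, R64 chrXV:83261-83380, minus strand: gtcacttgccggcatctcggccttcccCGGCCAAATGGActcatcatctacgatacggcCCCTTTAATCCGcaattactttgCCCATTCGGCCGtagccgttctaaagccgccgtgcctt
PCK1, R64 chrXI:630632-630711, plus strand: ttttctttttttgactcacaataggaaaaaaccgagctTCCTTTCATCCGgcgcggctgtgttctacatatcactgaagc

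The looser CSRE core, CCNNNNNNCCG, which the consensus contains, lay upstream of 9 of the 10 genes and in 32.2% of all windows. CIT2 was the gene without it. The letters of the R box, GTCAC, were common, in 59.9% of windows, and occurred 3 times upstream of CIT2. They are shown in capitals for CIT2 and for DLD3, the cytosolic lactate dehydrogenase gene that is another retrograde target, because both fell. The same letters also lay upstream of 7 of the 10 genes in all, among them MLS1, ICL1, MDH2, SFC1 and IDP2, which rose. They lay at 2 places upstream of CIT1, which rose too. For MLS1, PYC1 and IDP2 every match lay beyond the gap to the neighbouring gene, 793, 429 and 343 bases on the assembly. Those matches thus fell inside the neighbouring gene.
CIT2, R64 chrIII:122509-122688, minus strand: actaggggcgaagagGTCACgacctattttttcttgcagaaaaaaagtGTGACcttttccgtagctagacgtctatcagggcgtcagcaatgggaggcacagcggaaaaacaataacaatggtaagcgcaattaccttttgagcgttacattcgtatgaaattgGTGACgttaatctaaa
DLD3, R64 chrV:16175-16234, plus strand: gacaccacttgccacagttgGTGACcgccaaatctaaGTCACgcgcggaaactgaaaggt

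**Figure D1:**
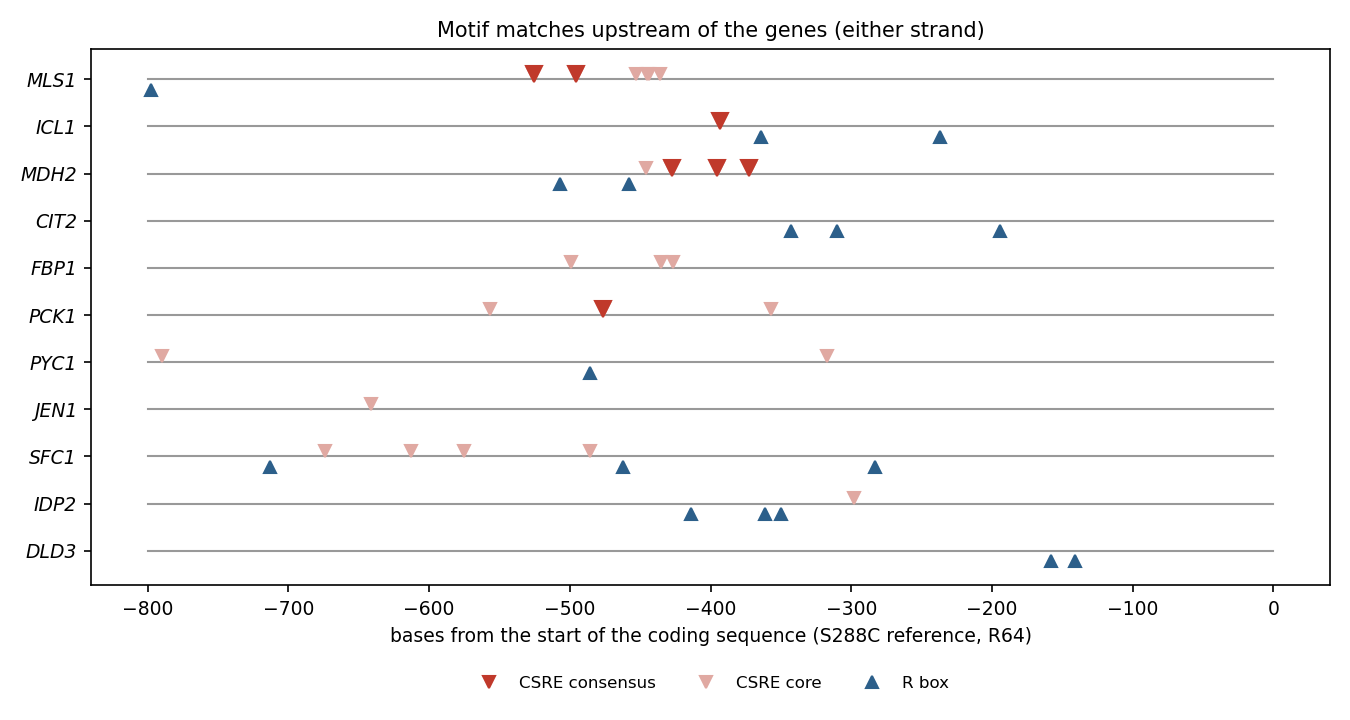
Positions of motif matches in the 800 bases before the coding start of the 10 genes and of DLD3, in bases from that start on the horizontal axis, with CSRE consensus matches as large red, CSRE core matches as pale red and R box matches as blue triangles. Core matches inside a consensus match are drawn beneath it. The consensus appears upstream of MLS1, ICL1, MDH2 and PCK1, between 531 and 378 bases before the start, and CIT2 has R box letters alone.

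Counted reads came to 14999412 to 15914985 per library in IMF17 and to 14696540 to 18801158 in IMX2109. Levels are in FPKM, counted reads divided by the length of the gene and the size of the library. Tests were made with limma on log2(FPKM + 1) over 5425 features with a mean of at least 1 FPKM, a filter that all 10 genes passed, and a gene was called when its Benjamini-Hochberg adjusted p was under 0.05. The added 1 pulls the fold changes of low genes toward 0. Reads on contigs named as chromosomes, called nuclear here, made up 84.6 ± 0.323% of the total in IMF17 and 90.4 ± 0.519% in IMX2109 (SD, n = 3). The rule goes by contig name alone, and what the remaining reads are was not examined. The median log2 fold change of all tested features was -0.07. The labels call the cultures biological triplicates. IMX2109 replicate 3 stood farthest from its fellows, with a chi-square per degree of freedom of 18.1 and 8.52 over genes against replicates 1 and 2, whereas the other pairs within a strain lay at 3.15 to 7.21.

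Of the 10 genes, MLS1, ICL1, MDH2, JEN1, SFC1 and IDP2 rose in IMF17, CIT2 fell, and FBP1, PCK1 and PYC1 did not pass the test. The share of all tested features called higher was 12.1%, and 25.3% were called lower. Full separation of the strains was common too, with IMF17 above in 14.5% of tested features and below in 35.1%. With libraries rescaled by median ratio 882 features were called higher and 639 lower, and with the scale set on nuclear reads 1033 and 480, against 654 and 1375 on the deposited scale. The 6 rises and the fall of CIT2 were called on each of these scales. The median log2 fold change of the 10 genes was 0.44.

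**Figure D2:**
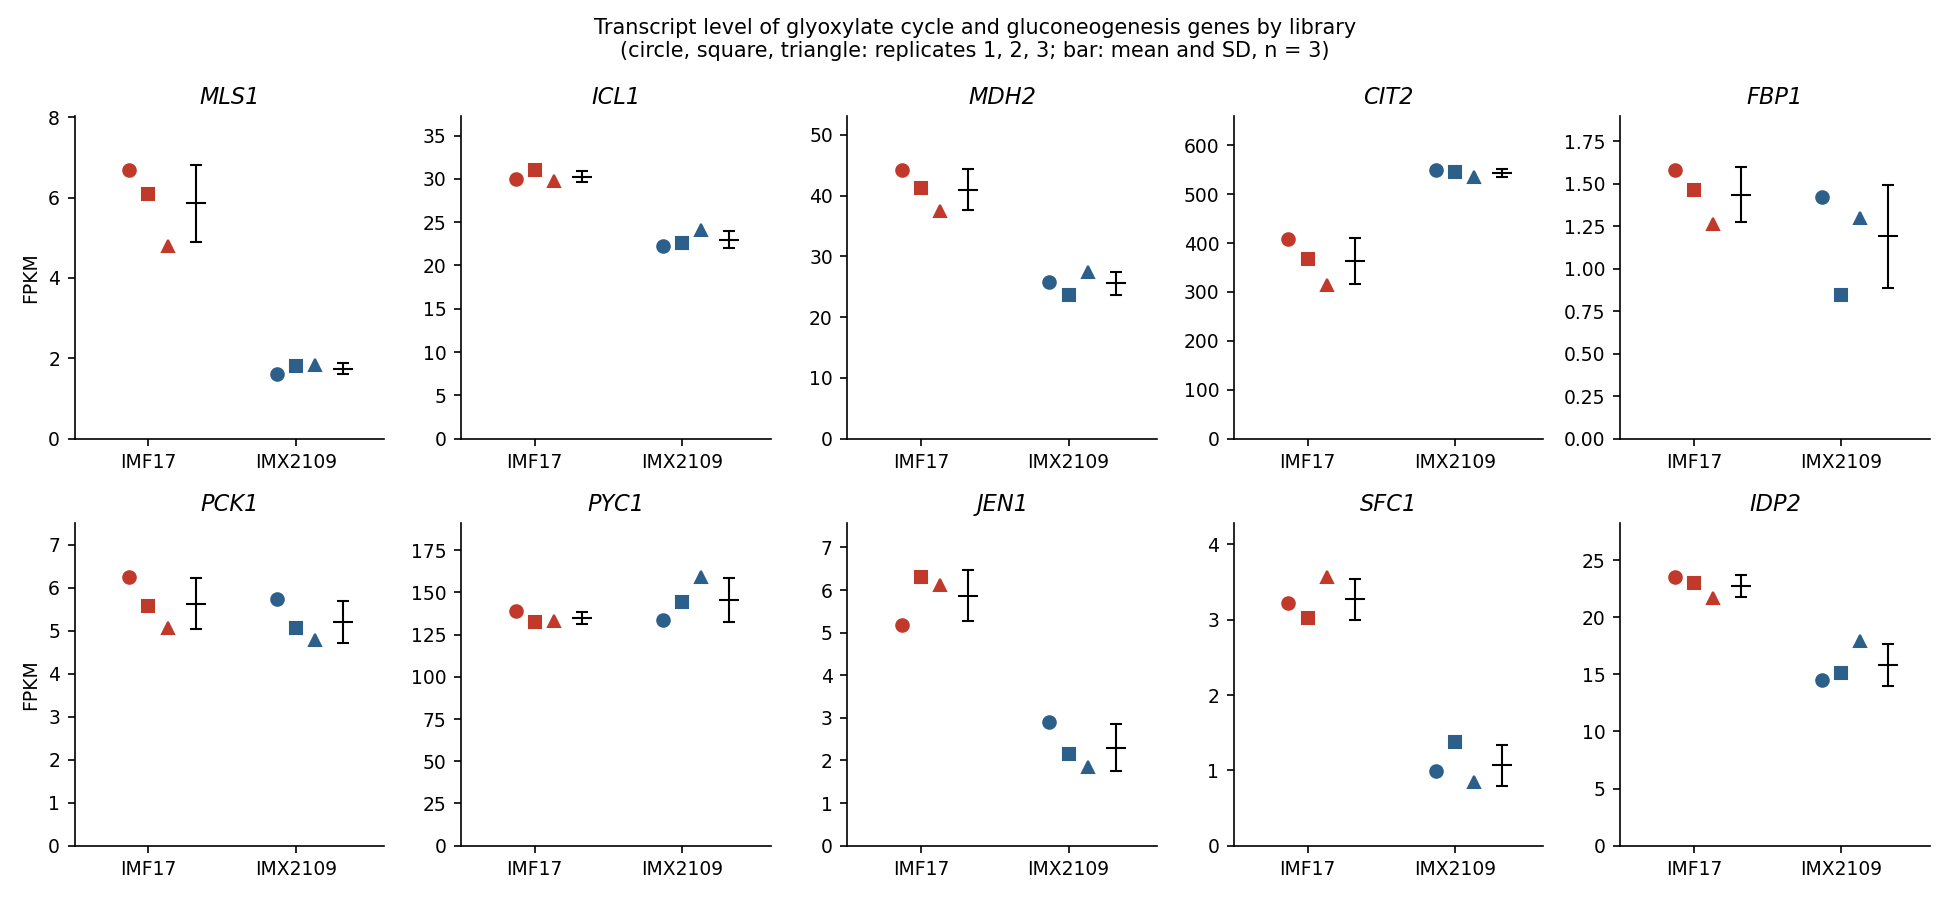
FPKM (vertical axes, starting at 0) of each gene in the 3 IMF17 libraries (red) and the 3 IMX2109 libraries (blue), with symbols for replicates 1 to 3 and a bar for the mean and SD. The strains do not overlap for MLS1, ICL1, MDH2, JEN1, SFC1 and IDP2, higher in IMF17, nor for CIT2, lower in IMF17. They overlap for FBP1, PCK1 and PYC1. Of all tested features 14.5% have all IMF17 values above those of IMX2109, and 35.1% have all below.

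MLS1 encodes malate synthase, which joins glyoxylate and acetyl-CoA to malate. Its level was 6.69, 6.09 and 4.79 FPKM in the IMF17 libraries, against 1.60, 1.80 and 1.84 FPKM in the IMX2109 libraries. Every IMF17 value exceeded every IMX2109 value, and the lowest IMF17 library was replicate 3. The ratio of mean FPKM was 3.36-fold, and the log2 fold change was 1.31 ± 0.12 (SE, limma adjusted p = 1.29e-05). Even in IMF17 this was a low gene, above 7.67% of nuclear features by mean FPKM, against 4.91% in IMX2109. The values rest on 454 reads over the IMF17 group, with a 95% exact Poisson interval of 413 to 498, and on 149 reads in IMX2109, with an interval of 126 to 175. Such intervals hold counting error alone, as copies made by PCR are not independent molecules.

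ICL1, isocitrate lyase, makes glyoxylate and succinate and is the committed step of the cycle. It stood at 29.99, 31.0 and 29.8 FPKM in IMF17, against 22.2, 22.6 and 24.1 FPKM in IMX2109. The strains were separate but the step was small, a 1.32-fold ratio of mean FPKM and a log2 fold change of 0.38 ± 0.06 (SE, limma adjusted p = 0.000928). MDH2, the cytosolic malate dehydrogenase that oxidises malate to oxaloacetate, had 44.2, 41.2 and 37.5 FPKM in IMF17 and 25.7, 23.6 and 27.4 FPKM in IMX2109. Its ratio was 1.60-fold, its log2 fold change 0.66 ± 0.08 (SE, limma adjusted p = 7.91e-05), and the strains did not overlap. The 95% intervals of these log2 fold changes were 1.04 to 1.58 for MLS1, 0.49 to 0.83 for MDH2 and 0.24 to 0.52 for ICL1, and the interval of MLS1 did not meet the other two.

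CIT2 encodes the peroxisomal citrate synthase, which condenses oxaloacetate with acetyl-CoA. It was the most highly expressed of the 10 genes and the sole one to fall. Its level was 407, 366 and 314 FPKM in IMF17, against 549, 545 and 535 FPKM in IMX2109. No values overlapped, and the IMF17 libraries were far more spread than the IMX2109 libraries. With 23376 reads in the IMF17 group, the chi-square per degree of freedom among those 3 libraries was 131, where counting error alone gives about 1, against 2.40 in IMX2109. The IMX2109 mean was 1.50-fold the IMF17 mean, and the log2 fold change was -0.59 ± 0.07 (SE, limma adjusted p = 0.000133). By log2 fold change CIT2 lay lower than all but 0.276% of tested features.

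FBP1 and PCK1 are the enzymes that bypass the irreversible steps of glycolysis, fructose bisphosphatase and phosphoenolpyruvate carboxykinase. FBP1 stood at 1.58, 1.46 and 1.26 FPKM in IMF17, against 1.42, 0.847 and 1.30 FPKM in IMX2109. The values interleaved, and with 70 reads in IMF17 and 64 in IMX2109 a small difference was not detectable at this depth. The log2 fold change was 0.16, with a 95% interval of -0.14 to 0.46 (limma adjusted p = 0.383). PCK1 had 6.25, 5.58 and 5.06 FPKM in IMF17 and 5.74, 5.07 and 4.78 FPKM in IMX2109, again with overlap. For PCK1 the log2 fold change was 0.10 with an interval of -0.13 to 0.33 (limma adjusted p = 0.499). That interval lies wholly below the fitted change of MLS1, a gene of like level in IMF17 whose upstream window also held the CSRE consensus. The difference between the changes of these genes was not tested.

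PYC1 and PYC2 encode cytosolic pyruvate carboxylase, which makes oxaloacetate from pyruvate for gluconeogenesis and also refills the tricarboxylic acid cycle on glucose. PYC1 stood at 139, 132 and 133 FPKM in IMF17, against 134, 144 and 159 FPKM in IMX2109. The log2 fold change was -0.11, with an interval of -0.24 to 0.02 (limma adjusted p = 0.182), and the highest value was that of IMX2109 replicate 3. Without IMX2109 replicate 1, PYC1 was called lower, at -0.17 (limma adjusted p = 0.0351).

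JEN1 and SFC1 are carriers. JEN1 is the plasma membrane symporter that imports lactate and pyruvate. It stood at 5.19, 6.30 and 6.11 FPKM in IMF17, against 2.90, 2.15 and 1.84 FPKM in IMX2109. The strains did not overlap, the ratio of mean FPKM was 2.55-fold, and the log2 fold change was 1.07 ± 0.13 (SE, limma adjusted p = 0.000118). SFC1 moves succinate from the cytosol into mitochondria in exchange for fumarate and so links the glyoxylate cycle to the tricarboxylic acid cycle. It had 3.22, 3.03 and 3.57 FPKM in IMF17 and 0.988, 1.37 and 0.843 FPKM in IMX2109, again without overlap. The ratio was 3.06-fold and the log2 fold change 1.05 ± 0.13 (SE, limma adjusted p = 0.000101). These values rest on 148 reads in IMF17 and on 54 reads in IMX2109, where the smaller number has a 95% exact Poisson interval of 40.6 to 70.5.

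IDP2 is the cytosolic NADP-dependent isocitrate dehydrogenase, a source of NADPH during growth on non-fermentable carbon. Its level was 23.5, 23.0 and 21.7 FPKM in IMF17, against 14.5, 15.1 and 18.0 FPKM in IMX2109. All IMF17 values were higher, the ratio of mean FPKM was 1.43-fold, and the log2 fold change was 0.50 ± 0.09 (SE, limma adjusted p = 0.00124).

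The 10 genes thus spanned a wide range of levels. In IMX2109 the order of mean FPKM was CIT2 (543), PYC1 (146), MDH2 (25.6), ICL1 (23.0), IDP2 (15.8), PCK1 (5.20), JEN1 (2.30), MLS1 (1.74), FBP1 (1.19) and SFC1 (1.07). Among these neighbours, the values of MDH2 and ICL1 overlapped, as did those of JEN1 and MLS1 and those of FBP1 and SFC1. In IMF17 the order was CIT2 (363), PYC1 (135), MDH2 (41.0), ICL1 (30.3), IDP2 (22.7), JEN1 (5.87), MLS1 (5.86), PCK1 (5.63), SFC1 (3.27) and FBP1 (1.43), and the values of JEN1, MLS1 and PCK1 overlapped. The largest ratios belonged to MLS1, SFC1 and JEN1, which were among the 4 lowest genes in IMX2109, and FBP1 was the fourth of these and did not pass. In absolute terms MLS1 gained 4.11 FPKM, JEN1 3.57 FPKM and SFC1 2.20 FPKM, against 15.4 FPKM for MDH2, 7.28 FPKM for ICL1 and 6.87 FPKM for IDP2.

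Most of these enzymes have isoforms in another compartment or with another role, and 9 such genes had a row. Of these 5 rose, DAL7 fell and 3 did not pass, with a median log2 fold change of 0.17. The shares over all tested features were 12.1% higher and 25.3% lower. In the malate synthase pair the genes went opposite ways. DAL7, the isoform known for allantoin use, averaged 39.8 ± 1.85 FPKM in IMF17 cultures and 49.1 ± 4.02 FPKM in IMX2109 cultures (SD, n = 3), a log2 fold change of -0.30 (limma adjusted p = 0.00612). In the citrate synthase family the peroxisomal CIT2 fell while both mitochondrial isoforms rose. CIT1, the main enzyme of the tricarboxylic acid cycle step, averaged 454 ± 22.3 FPKM in IMF17 cultures and 341 ± 14.4 FPKM in IMX2109 cultures (SD, n = 3; limma adjusted p = 6.38e-05). CIT3, a minor isoform, averaged 10.2 ± 0.588 FPKM in IMF17 cultures and 6.04 ± 0.853 FPKM in IMX2109 cultures (SD, n = 3; limma adjusted p = 0.000592).

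All 3 malate dehydrogenases rose. Mitochondrial MDH1 averaged 488 ± 21.6 FPKM in IMF17 cultures and 348 ± 12.0 FPKM in IMX2109 cultures (SD, n = 3), with a log2 fold change of 0.48 (limma adjusted p = 9.62e-06). For peroxisomal MDH3 the log2 fold change was 0.17 (limma adjusted p = 0.0273), and the call was lost without IMX2109 replicate 1 and without any 1 of the IMF17 libraries (limma adjusted p from 0.0567 to 0.0969). Among NADP-dependent isocitrate dehydrogenases, cytosolic IDP2 alone was called. Mitochondrial IDP1 had a log2 fold change of -0.02 (interval -0.10 to 0.06, limma adjusted p = 0.658), and its sign turned under rescaling by median ratio (0.04) and on nuclear reads (0.07). Peroxisomal IDP3 stood at 0.11 (interval -0.07 to 0.29, limma adjusted p = 0.299). ICL2, a mitochondrial relative of ICL1 that acts on methylisocitrate, stood at 0.05 (interval -0.11 to 0.21, limma adjusted p = 0.623). PYC2 averaged 107 ± 2.30 FPKM in IMF17 cultures and 93.9 ± 9.32 FPKM in IMX2109 cultures (SD, n = 3), a log2 fold change of 0.19 (limma adjusted p = 0.0411). That call was lost when values were rescaled to TPM (limma adjusted p = 0.0611), without any 1 of the IMF17 libraries and without IMX2109 replicate 1 or 2 (limma adjusted p from 0.0742 to 0.122).

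**Figure D3:**
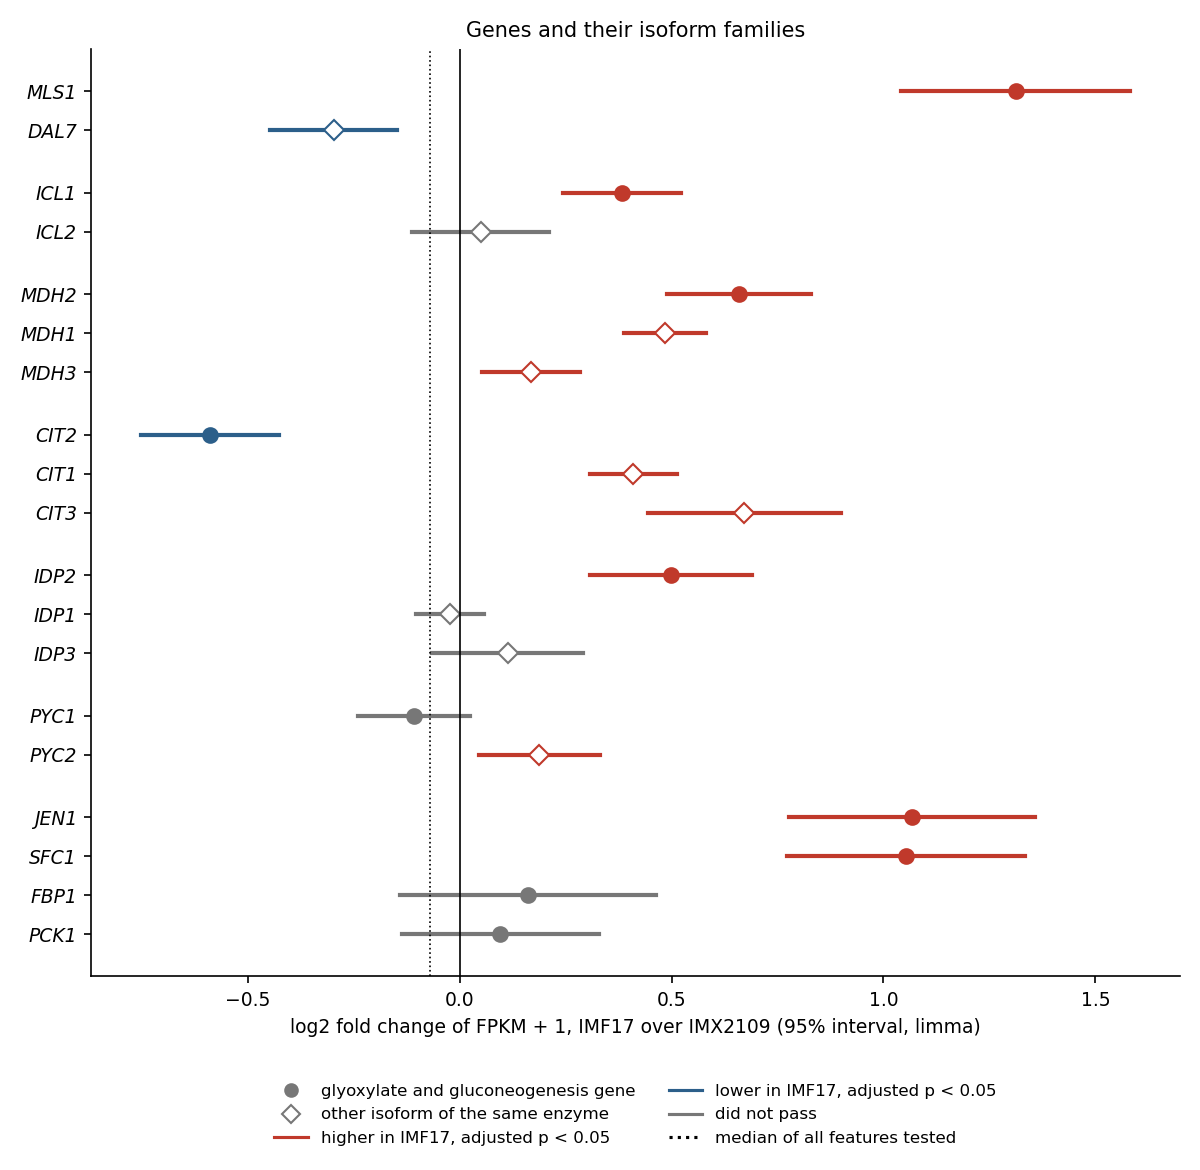
Log2 fold change of FPKM + 1, IMF17 over IMX2109 (horizontal axis), with its 95% interval from limma, for the 10 genes (filled circles) and the other isoforms of their enzymes (open diamonds). MLS1 lies at 1.31 while DAL7 lies at -0.30, and CIT2 lies at -0.59 while CIT1 and CIT3 lie at 0.41 and 0.67.

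The share of a gene within its isoform family needs no scaling between libraries. MLS1 made up 13.8, 13.7 and 11.0% of the summed FPKM of MLS1 and DAL7 in the IMF17 libraries, against 3.34, 3.65 and 3.31% in the IMX2109 libraries. The sum of this pair was 45.6 ± 2.60 FPKM in IMF17 cultures and 50.9 ± 4.12 FPKM in IMX2109 cultures (SD, n = 3), and the strains overlapped. CIT2 made up 45.9, 43.6 and 41.8% of the 3 citrate synthase transcripts in IMF17, against 62.0, 61.4 and 59.6% in IMX2109. In IMX2109 CIT2 was thus the larger part of the citrate synthase transcripts, and in IMF17 it was the smaller part. The sum was 827 ± 68.8 FPKM in IMF17 cultures and 890.2 ± 5.97 FPKM in IMX2109 cultures (SD, n = 3), again with overlap.

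ICL1 held 62.9 ± 1.29% of its pair in IMF17 and 57.2 ± 0.725% in IMX2109, IDP2 held 8.75 ± 0.236% of its family in IMF17 and 6.21 ± 0.756% in IMX2109, and MDH2 held 5.55 ± 0.277% of its family in IMF17 and 4.57 ± 0.390% in IMX2109 (SD, n = 3). PYC1 held 55.8 ± 1.13% of its pair in IMF17 and 60.8 ± 0.276% in IMX2109, while the summed level of the pair was 242 ± 2.24 FPKM in IMF17 cultures and 239.5 ± 22.2 FPKM in IMX2109 cultures (SD, n = 3). In each of these 6 families the shares of the strains did not overlap. The two-sided exact permutation p was 0.1 for each, which is the smallest that 3 libraries against 3 allow, and 0.1 after Benjamini-Hochberg adjustment over the 6. For comparison, the 3 IMF17 values of a single feature lay all above those of IMX2109 for 14.5% of tested features and all below for 35.1%. Those are FPKM values, which depend on the scale between libraries, so they are not a like background for shares. No background of shares was computed.

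**Figure D4:**
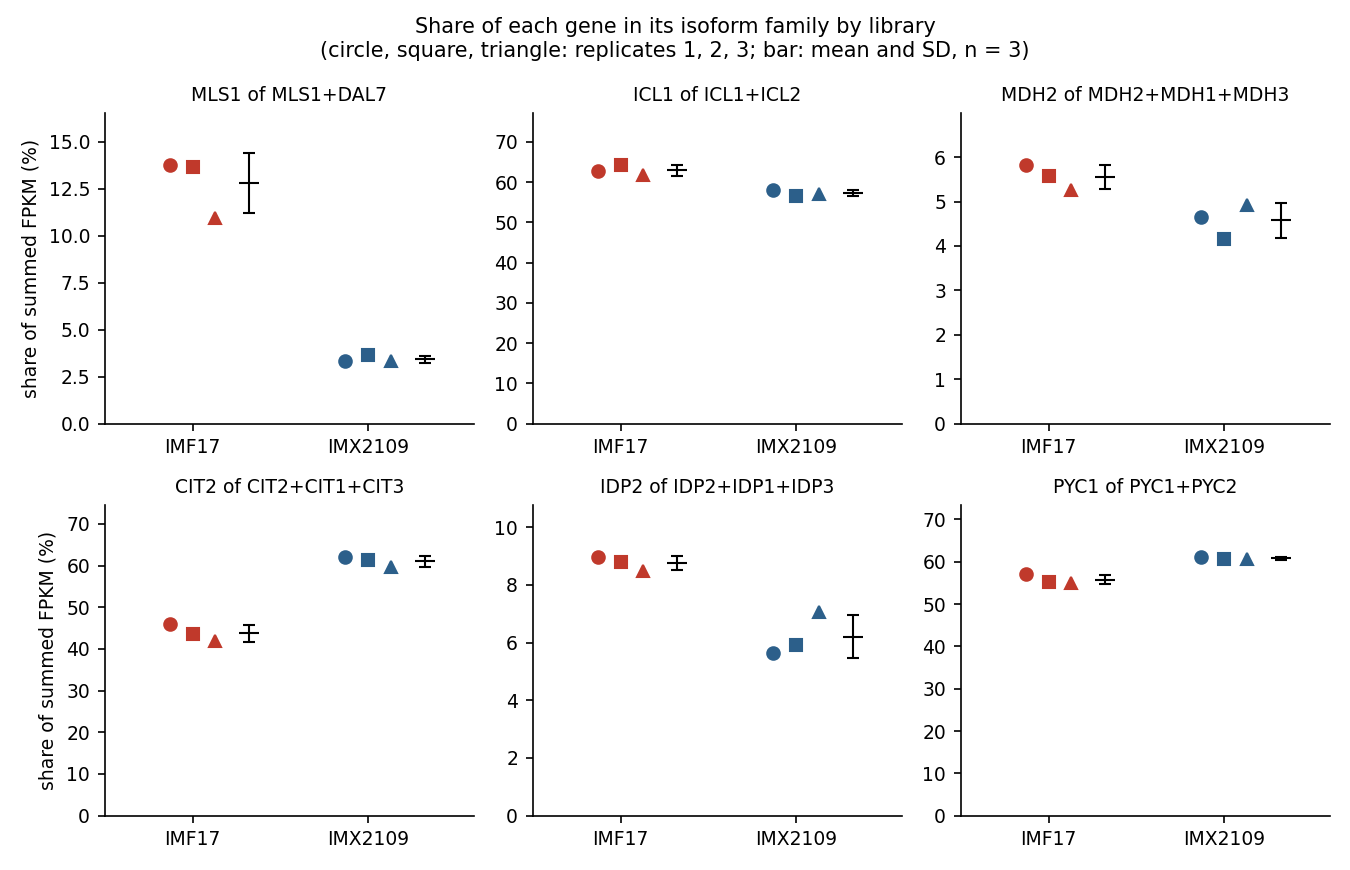
Share of each gene in the summed FPKM of its isoform family, in percent on vertical axes that start at 0, for the 3 IMF17 libraries (red) and the 3 IMX2109 libraries (blue), with mean and SD. MLS1 rises to 12.8% in IMF17, against 3.43% in IMX2109, and CIT2 falls to 43.8% in IMF17, against 61.0% in IMX2109.

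How far reads could be exchanged between these isoforms was judged from the R64 coding sequences. PYC1 and PYC2 were 85.1% identical, with an identical run of 200 bases, so their separate values and their share are uncertain. MLS1 and DAL7 were 74.0% identical and CIT2 and CIT1 70.7%, with longest identical runs of 19 and 21 bases. No other pair compared was above 68.7%, and the longest identical run among the rest was 23 bases, between IDP2 and IDP1. The other isoforms of a family, such as CIT1 and CIT3, were not compared with each other.

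CIT2 and its fellow targets of the retrograde pathway did not move as 1 group. DLD3 fell, with 887, 862 and 818 FPKM in IMF17, against 1279, 1252 and 1291 FPKM in IMX2109. Its log2 fold change was -0.57 ± 0.04 (SE, limma adjusted p = 1e-06), and the IMX2109 mean was 1.49-fold the IMF17 mean, close to the 1.50-fold of CIT2. Of the 5 other targets examined, CIT1 rose, DLD3 fell, and ACO1, IDH1 and IDH2 did not pass (median log2 fold change 0.06). Among all tested features 12.1% were called higher and 25.3% lower.

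Of 23 genes for regulators of the pathway, 2 rose, 2 fell and 19 did not pass (median log2 fold change -0.03). Over all tested features 12.1% were called higher and 25.3% lower, so these counts do not set the regulators apart. MIG1, the glucose repressor, averaged 49.1 ± 0.694 FPKM in IMF17 cultures and 62.7 ± 1.41 FPKM in IMX2109 cultures (SD, n = 3), and its log2 fold change was -0.35 (limma adjusted p = 0.00033). The related MIG3 fell as well, by 0.47 on the log2 scale (limma adjusted p = 0.000474). MIG2, of the same family, did not pass, with a log2 fold change of -0.01 (limma adjusted p = 0.949). ADR1, an activator of genes for ethanol use, rose by 0.38 (limma adjusted p = 0.0172), a call lost without IMF17 replicate 2 and without IMX2109 replicate 1 or 2 (limma adjusted p from 0.0543 to 0.0622). HAP4, the regulated subunit of the activator of respiration, rose by 0.20 (limma adjusted p = 0.0121). CAT8 and SIP4, singled out after their values were seen because they bind the CSRE, did not pass. CAT8 averaged 3.13 ± 0.115 FPKM in IMF17 cultures and 2.64 ± 0.489 FPKM in IMX2109 cultures (SD, n = 3), a log2 fold change of 0.19 (interval -0.07 to 0.45). SIP4 averaged 2.24 ± 0.183 FPKM in IMF17 cultures and 2.23 ± 0.201 FPKM in IMX2109 cultures (SD, n = 3), a log2 fold change of 0.00 (interval -0.24 to 0.25).

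The GID ubiquitin ligase degrades Fbp1, Pck1, Mdh2 and Icl1 proteins when glucose returns. Of its 10 genes, FYV10 and GID11 rose, 0 fell and 8 did not pass (median log2 fold change 0.14). The shares of all tested features were 12.1% called higher and 25.3% called lower. FYV10, a subunit of the catalytic part, averaged 6.29 ± 0.466 FPKM in IMF17 cultures and 3.56 ± 0.368 FPKM in IMX2109 cultures (SD, n = 3; limma adjusted p = 0.000531). The number called higher was 5 with median-ratio scaling and 7 with scaling on nuclear reads. On those scales 882 and 1033 of all features were called higher, against 654 on the deposited scale.

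Of 14 other genes listed for the use of ethanol, acetate, lactate and glycerol, 13 had a row and 11 passed the filter on low values, which ADY2 and STL1 did not. Among those 11, 9 rose, DLD1 fell and GUT1 did not pass, with a median log2 fold change of 0.54. Of all tested features 12.1% were called higher and 25.3% lower. GUT1, glycerol kinase, had a log2 fold change of -0.08 (limma adjusted p = 0.336), and its sign turned with scaling on nuclear reads (0.02). CYB2, which oxidises lactate in the mitochondrial intermembrane space, averaged 218 ± 21.7 FPKM in IMF17 cultures and 98.7 ± 1.70 FPKM in IMX2109 cultures (SD, n = 3), 2.21-fold higher (limma adjusted p = 1.66e-07). ALD4, mitochondrial aldehyde dehydrogenase, was 2.04-fold higher, CRC1, the mitochondrial carnitine carrier, 2.69-fold higher, and GUT2, mitochondrial glycerol phosphate dehydrogenase, 1.83-fold higher. ACS1, the acetyl-CoA synthetase that supplies the cycle with acetyl-CoA, rose by 0.32 on the log2 scale (limma adjusted p = 0.0166) but was not called without IMF17 replicate 2 (limma adjusted p = 0.0776). DLD1, mitochondrial D-lactate dehydrogenase, fell by 0.15 (limma adjusted p = 0.0189), and this fall was not called with median-ratio scaling (limma adjusted p = 0.172) or with scaling on nuclear reads (limma adjusted p = 0.373). It was also not called without IMF17 replicate 3 (limma adjusted p = 0.0642) or without IMX2109 replicate 2 (limma adjusted p = 0.0503).

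Genes known to respond to the glucose level went both ways. Of 10 listed, 8 were tested, HXT1, HXT5, HXT6 and HXT7 rose, HXT3 and HXT4 fell, and SUC2 and HXT2 did not pass. In all tested features the called shares were 12.1% higher and 25.3% lower. SUC2, the glucose-repressed gene for invertase, averaged 70.0 ± 1.72 FPKM in IMF17 cultures and 67.5 ± 3.28 FPKM in IMX2109 cultures (SD, n = 3; limma adjusted p = 0.449), though with scaling on nuclear reads it was called higher (limma adjusted p = 0.0487). HXT2, another transporter repressed by high glucose, averaged 4.40 ± 0.352 FPKM in IMF17 cultures and 4.25 ± 0.523 FPKM in IMX2109 cultures (SD, n = 3; limma adjusted p = 0.781). HXT7, a high-affinity transporter repressed by glucose, averaged 15.6 ± 1.16 FPKM in IMF17 cultures and 5.47 ± 0.708 FPKM in IMX2109 cultures (SD, n = 3; limma adjusted p = 1.76e-06), though its reads can be exchanged with those of the near-identical HXT6. HXT1, a low-affinity transporter induced by high glucose, averaged 490.3 ± 1.11 FPKM in IMF17 cultures and 369 ± 12.8 FPKM in IMX2109 cultures (SD, n = 3; limma adjusted p = 1.14e-05). HXT4 fell by 0.69 and HXT3 by 0.27 on the log2 scale. The labels do not give the glucose left in the medium at sampling, and the part of these shifts in the rises described above was not tested.

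All 10 genes lie on native chromosomes of the assembly, MLS1 at 406808 to 408472 on chromosome 14, ICL1 at 297738 to 299411 on chromosome 5, and CIT2 at 150007 to 151389 on chromosome 3. Their nearest features on each side, 20 in all, were 1 higher, 8 lower and 11 not past the test, with log2 fold changes between -0.21 and 0.41. Over all tested features 12.1% were called higher and 25.3% lower, and the number of neighbours called lower turned on the scale. It was 8 of 20 on the deposited scale, 2 with median-ratio scaling and 0 with scaling on nuclear reads, and it was 4 without IMF17 replicate 1 or 2 and 5 without IMX2109 replicate 2. The riser was YJR096W, a gene for a reductase that starts 453 bases after SFC1, with 40.6 ± 2.30 FPKM in IMF17 cultures and 30.4 ± 2.54 FPKM in IMX2109 cultures (SD, n = 3; limma adjusted p = 0.00157). Beside MLS1, DCP2 had a log2 fold change of -0.02 and DMA2 had one of -0.20. Beside CIT2, YCP4 stood at 0.00.

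**Figure D5:**
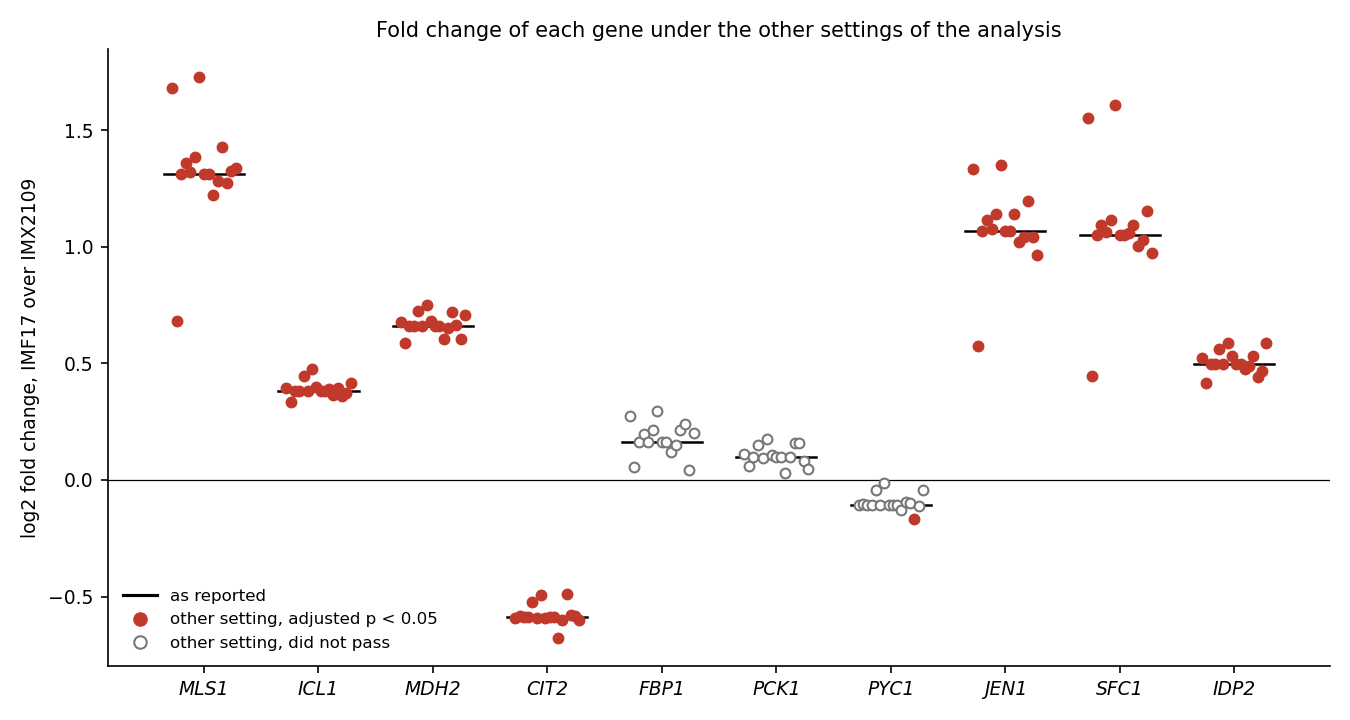
Log2 fold change, IMF17 over IMX2109 (vertical axis), of each gene as reported (black line) and under each other setting of the analysis (points, red where the limma adjusted p was under 0.05, open where it was not). The points of MLS1, JEN1 and SFC1 spread widest, between 0.68 and 1.73, 0.58 and 1.35, and 0.45 and 1.61, and 1 setting for PYC1 is red.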

How the data were processed

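RNA of 6 cultures was sequenced after hot-phenol extraction and a stranded mRNA library kit, per the labels' protocols. The authors deposited FPKM per feature, 1 table per library, on a polished assembly of IMF17 with its neochromosome, per the file headers. Per the submitters' processing notes they used STAR 2.5.4a, SAMtools, featureCounts, edgeR and DESeq2, whose roles and settings no source used here gives. IMX2109 reads were therefore counted on IMF17 gene models. FPKM times gene length gave whole reads within 0.01 for 100% of values, which supplied depth. Reads were tested only in limma-voom, as an alternative.

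Strains came from the sample titles. The test was limma 3.58.1 (R 4.3.3) with a trended prior, two-sided, on log2 values of FPKM + 1 for features with mean FPKM at least 1, adjusted over all 5425 features. It was also run on simulated counts with the same dispersion for every feature and no strain difference beyond the planted changes. That run does not show how the test does on libraries as uneven as these. Python 3.11.15, pandas 2.3.3, numpy 2.4.6, Biopython 1.88 and matplotlib 3.10.9 served the rest. 5497 features matched R64 locus tags, which gave names. Named were the 10 genes, all isoform genes, up to 4 genes of smallest p per other list with any moving against it, and neighbouring features. ACS1, CAT8, SIP4, MIG2 and the retrograde targets were named besides. Members and lists were chosen with earlier results of these data known. Alternatives were other pseudocounts, filters, scalings, variances, a replicate block and leaving out each library. ADH2, HXK1 and GLK1 were not analysed here.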

Additional observations from a re-analysis of the deposited data

How the results depend on the processing

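Across the 16 other settings the 6 rises and the fall of CIT2 kept their direction and their call wherever the gene was tested, and FBP1 and PCK1 were called in none. With a filter at 10 FPKM, MLS1, JEN1 and SFC1 were not tested, which left 3 of the 10 genes called higher, 1 regulator, 1 GID gene and 2 glucose-responsive genes. Median-ratio rescaling gave 639 features called lower, 4 regulators and 5 GID genes called higher and 0 lower in the list of non-fermentable carbon. Rescaling on nuclear reads gave 1033 features higher and 480 lower, 4 regulators, 7 GID genes and 3 retrograde targets higher, and 0 lower in the list of non-fermentable carbon. IDP1 turned to 0.0437 and 0.0734 in these scalings. Scaling on nuclear reads moved the median of all features by 0.09 on the log2 scale. GUT1 turned to 0.0184 with scaling on nuclear reads, and HXT2 ranged from -0.0123 without IMX2109 replicate 2 to 0.122 without IMX2109 replicate 1. SIP4, near 0, ranged from -0.0424 without IMF17 replicate 3 to 0.0545 without IMX2109 replicate 3.

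Leaving out each library gave 6 to 6 of the 10 genes higher and 1 to 2 lower, 516 to 761 features higher and 939 to 1326 lower. Isoform genes were 3 to 5 higher and 1 to 1 lower, regulators 1 to 4 and 2 to 4, GID genes 2 to 5 and 0 to 0, genes of non-fermentable carbon 7 to 9 and 0 to 1, retrograde targets 1 to 1 and 1 to 1, and glucose-responsive genes 3 to 4 and 2 to 2. The differences of share, in percentage points, kept their sign, from 8.88 to 10.3 for MLS1, 5.05 to 6.35 for ICL1, 0.768 to 1.15 for MDH2, -18.3 to -16.3 for CIT2, 2.26 to 2.97 for IDP2 and -5.67 to -4.61 for PYC1.

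Same-numbered libraries did not deviate together throughout (correlations 0.10, -0.05 and 0.14), and libraries of unlike number had correlations from -0.15 to 0.10. These few values do not settle whether the numbers pair the cultures. With the replicate number as a block 685 features were higher and 1517 lower, against 654 and 1375 without it. In that fit 6 of the 10 genes were higher and 1 lower. The depth of FBP1 and SFC1, 64 and 54 reads over IMX2109, limits what a small change could show. Causes of these changes were not tested.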
